A study of Mus musculus with 4 samples.

Results

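Levels of 10 genes that mark monocytes were followed across 4 Affymetrix gene arrays of mouse colony-forming cells. The genes were Ccr2, Cx3cr1, Cd14, Fcgr1, Adgre1, Vcan, F13a1, Lyz2, Mpeg1 and Cd68, chosen by name for their role in monocytes. Each was represented by 1 probe set with 1 gene symbol, giving 10 of the 35556 probe sets and 10 of the 19938 named genes in the table. The cells, on a C57BL/6 background, came from colonies grown in methylcellulose containing GM-CSF, IL-3, IL-6 and SCF, and each array held RNA of 1 group. The groups were short-term haematopoietic stem cells (ST-HSCs) transduced with mock or with CreER, and long-term haematopoietic stem cells (LT-HSCs) transduced with mock or with CreER. CreER is a Cre recombinase fused to the hormone-binding part of the oestrogen receptor, and MLL-ENL, the leukaemia fusion protein named in the series title, was to be expressed conditionally. The labels do not say whether CreER was activated, how old the donor mice were or whether animals were pooled. With 1 array a group, a difference between 2 arrays has no replicate check and no error, so precision is limited by how few arrays there are.

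Monocytes arise in the marrow from granulocyte and macrophage progenitors under the control of the transcription factors PU.1 and IRF8. Classical monocytes carry much of the chemokine receptor CCR2, which lets them leave the marrow towards its ligands, whereas patrolling monocytes carry little CCR2 and much of the fractalkine receptor CX3CR1. In cultures with GM-CSF, monocytes go on to form macrophages and dendritic cells. Several of the 10 genes are not private to monocytes: Lyz2 and Cd68 are also transcribed in other phagocytes, Ccr2 also in basophils, F13a1 also in megakaryocytes and Adgre1 also in eosinophils.

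The array values are log2 levels. The signal floor, taken as the median of all singly named probe sets on an array, lay between 8.07 and 8.13. Of the 10 monocyte genes, 9 stood above the floor on all 4 arrays, by more than 1 log2 unit, and Cx3cr1 lay at the floor. The mean log2 level of the 10 genes was 11.83 on the ST-HSC mock array, 11.48 on ST-HSC CreER, then 11.44 for LT-HSC mock and 11.26 for LT-HSC CreER. For the genes as a whole, ST-HSC mock was thus highest and LT-HSC CreER lowest. Singly, ST-HSC mock was the highest of the 4 arrays for 7 of the 10 genes, against 27.2% of the 10411 genes above the floor on at least 1 array. The LT-HSC CreER array was the lowest for 7 of the 10, against 30.0% of those genes. The monocyte genes did not share 1 profile: Ccr2, Vcan and F13a1 stood out on ST-HSC mock, Fcgr1, Adgre1 and Cd68 were low on LT-HSC CreER, and Lyz2 and Cx3cr1 were nearly level. In bulk RNA, fewer monocytes and less of a transcript in each monocyte cannot be told apart.

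**Figure D1:**
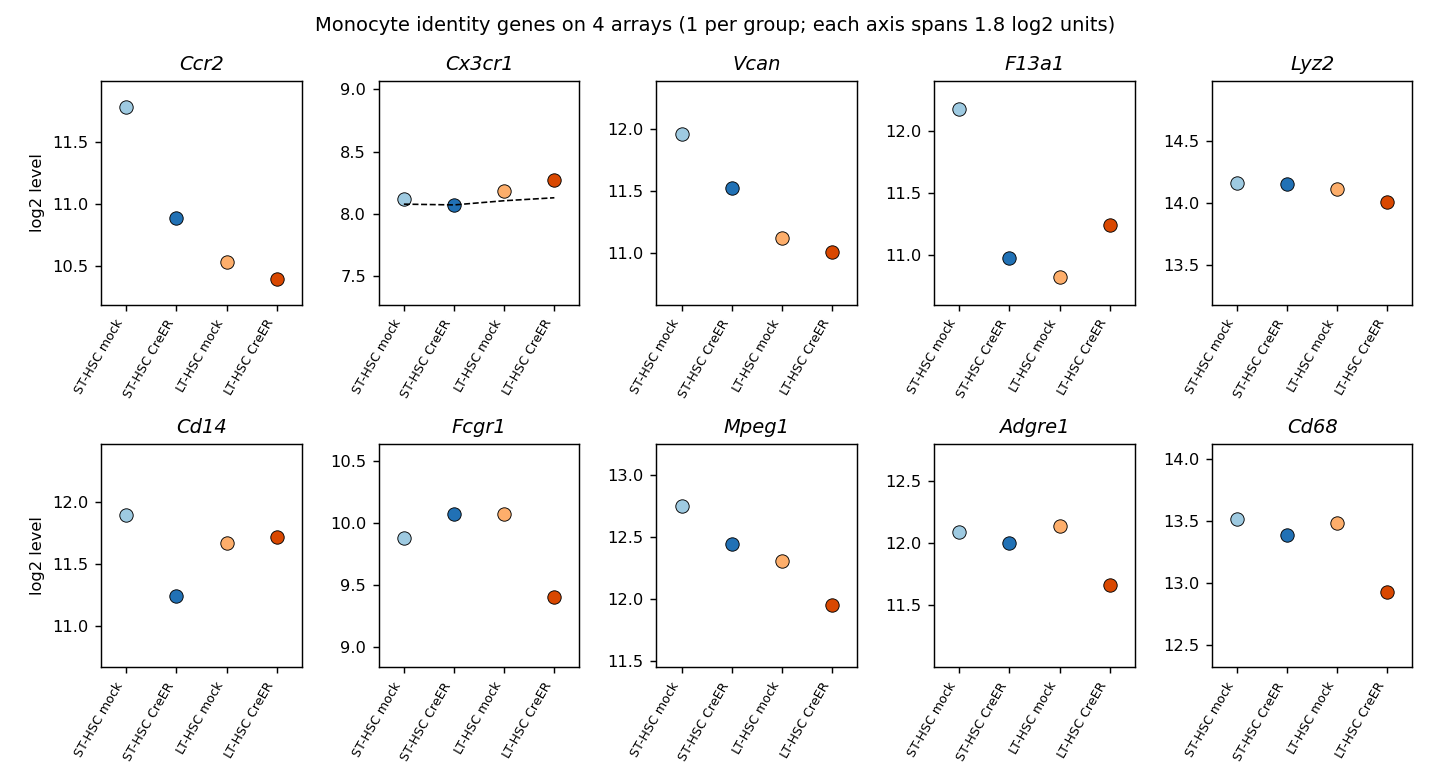
Log2 level of each monocyte gene (vertical axis, spanning 1.8 log2 units in every panel) on the 4 arrays (horizontal axis), with 1 point for each array and no error bar because each group held 1 array; the dashed line is the signal floor, visible only for Cx3cr1. Ccr2, Vcan and F13a1 are highest on the ST-HSC mock array, and Fcgr1, Adgre1 and Cd68 are lowest on the LT-HSC CreER array.

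Among the chemokine receptors, Ccr2 spanned 1.38 log2 units over the 4 arrays, the widest span of the 10 genes. Its level was 11.78 on ST-HSC mock, 10.89 on ST-HSC CreER, then 10.53 for LT-HSC mock and 10.40 for LT-HSC CreER. Ccr2 was therefore high on 1 array, and the 3 others lay closer together. Cx3cr1, the receptor of patrolling monocytes, was at 8.12 on ST-HSC mock, 8.07 on ST-HSC CreER, then 8.18 for LT-HSC mock and 8.27 for LT-HSC CreER. These values stood at the floor, which Cx3cr1 missed on ST-HSC CreER, and spanned 0.20 units, so its differences have an uncertain size.

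The secreted and matrix genes behaved like Ccr2 on the ST-HSC mock array. F13a1, which encodes the catalytic chain of coagulation factor XIII, was at 12.18 on ST-HSC mock, 10.98 on ST-HSC CreER, then 10.82 for LT-HSC mock and 11.24 for LT-HSC CreER. Unlike Ccr2, F13a1 was lowest on LT-HSC mock and partly higher again on LT-HSC CreER. Vcan encodes versican, a large matrix proteoglycan that classical monocytes make, and its level was 11.96 on ST-HSC mock, 11.52 on ST-HSC CreER, then 11.12 for LT-HSC mock and 11.01 for LT-HSC CreER. Vcan had the same order of arrays as Ccr2, Mpeg1 and Lyz2, an order shown by 4 of the 10 genes and by 9.58% of the 10411 genes.

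Among the surface receptors, Cd14, the lipopolysaccharide co-receptor, was at 11.89 on ST-HSC mock, 11.24 on ST-HSC CreER, then 11.67 for LT-HSC mock and 11.71 for LT-HSC CreER. Cd14 was thus low on the ST-HSC CreER array alone. Fcgr1, the high-affinity IgG receptor, was at 9.88 on ST-HSC mock, 10.07 on both LT-HSC mock and ST-HSC CreER, and 9.40 for LT-HSC CreER. Adgre1, which encodes an adhesion-type receptor on the surface of macrophages, was at 12.09 on ST-HSC mock, 12.00 on ST-HSC CreER, then 12.14 for LT-HSC mock and 11.66 for LT-HSC CreER. Fcgr1 and Adgre1 were both low on LT-HSC CreER, with the other 3 arrays close together.

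The lysosomal and antimicrobial genes were Lyz2, Mpeg1 and Cd68. Lyz2, the lysozyme gene of macrophages and neutrophils, was at 14.16 on ST-HSC mock, 14.15 on ST-HSC CreER, then 14.12 for LT-HSC mock and 14.01 for LT-HSC CreER. Its span of 0.15 units was the smallest of the 10 genes, at a level near the top of the table's range of 2.21 to 14.82, where array signals can be compressed. Mpeg1, which encodes the pore-forming protein perforin-2, was at 12.75 on ST-HSC mock, 12.44 on ST-HSC CreER, then 12.30 for LT-HSC mock and 11.95 for LT-HSC CreER. Cd68, a lysosomal membrane glycoprotein gene, was at 13.52 on ST-HSC mock, 13.39 on ST-HSC CreER, then 13.49 for LT-HSC mock and 12.93 for LT-HSC CreER. Mpeg1 stepped down across the arrays, whereas Cd68 was low on LT-HSC CreER only.

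The likeness of profiles was measured as the Euclidean distance between the 4 log2 levels of each gene after centring on the gene's own mean, over 4 arrays. Adgre1 and Cd68 were the closest pair of the 10 genes, at a distance of 0.12 log2 units, and each lay close to Fcgr1 (0.26 and 0.24). Vcan and Mpeg1 were 0.28 apart and Ccr2 and Vcan 0.38 apart. The farthest pair was F13a1 and Fcgr1, at 1.29. Only Ccr2 and F13a1 spanned at least 1 unit, and their nearest profiles were sought among the 528 genes that did so above the floor. For Ccr2 these were Hilpda, a lipid droplet protein gene, at 0.17, Cxcl16, a transmembrane chemokine gene, at 0.22 and Cds1 at 0.22. For F13a1 they were the heat shock gene Hspa1a at 0.28, Rassf4 at 0.45 and Cxcl16 at 0.49. Cds1 passed the floor only on ST-HSC mock, and Cxcl16 was under it on both LT-HSC arrays, so these profiles are less certain. The distances of F13a1 to its nearest genes were larger than those of Ccr2.

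Promoter windows of 300 bases, 250 before and 50 after the annotated start, were available for 8 of the 10 genes (9 windows, 2 of them for F13a1) from RefSeq, build GRCm38.p6. The windows of Ccr2 and F13a1 are shown because these genes differed most between arrays, and that of Cd68 because it stands for the genes low on LT-HSC CreER. The windows lie at chr9:124101933-124102232 on the plus strand for Ccr2, chr13:37050195-37050494 and chr13:37049164-37049463 on the minus strand for F13a1, and chr11:69666121-69666420 on the minus strand for Cd68. Capitals mark matches, on either strand, to the PU.1 core GAGGAA, the C/EBP consensus TTNNGNAA and the composite site of ETS factors and IRF8 (GGAA, any 2 bases, GAAA).
Ccr2: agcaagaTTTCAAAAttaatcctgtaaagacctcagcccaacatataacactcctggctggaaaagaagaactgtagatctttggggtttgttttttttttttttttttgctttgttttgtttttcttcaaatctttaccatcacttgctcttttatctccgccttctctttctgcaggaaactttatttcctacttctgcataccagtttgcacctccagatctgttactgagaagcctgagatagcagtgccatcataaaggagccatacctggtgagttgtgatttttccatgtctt
F13a1, upstream start: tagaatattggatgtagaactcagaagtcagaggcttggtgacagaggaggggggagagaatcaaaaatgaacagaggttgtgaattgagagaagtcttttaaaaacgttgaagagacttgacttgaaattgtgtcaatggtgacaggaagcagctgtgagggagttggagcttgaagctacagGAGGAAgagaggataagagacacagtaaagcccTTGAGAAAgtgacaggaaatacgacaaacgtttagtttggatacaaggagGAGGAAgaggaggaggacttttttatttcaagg
F13a1, downstream start: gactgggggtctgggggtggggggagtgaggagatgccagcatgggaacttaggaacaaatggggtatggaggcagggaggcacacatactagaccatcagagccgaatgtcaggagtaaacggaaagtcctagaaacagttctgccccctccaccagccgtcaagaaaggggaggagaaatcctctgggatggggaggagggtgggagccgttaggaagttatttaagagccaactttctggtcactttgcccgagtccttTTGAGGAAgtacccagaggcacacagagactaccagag
Cd68: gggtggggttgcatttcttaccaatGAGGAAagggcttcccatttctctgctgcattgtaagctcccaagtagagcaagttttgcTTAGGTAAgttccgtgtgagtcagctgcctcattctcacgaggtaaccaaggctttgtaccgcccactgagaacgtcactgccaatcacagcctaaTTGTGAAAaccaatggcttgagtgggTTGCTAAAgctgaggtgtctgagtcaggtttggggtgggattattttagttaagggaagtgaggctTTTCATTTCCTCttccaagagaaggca
The PU.1 core was found in 4 of the 9 windows of monocyte genes, against 28.3% of all 32851 promoter windows: in both F13a1 windows and those of Cd68 and Fcgr1. The C/EBP consensus was found in 6 of 9 windows, against 40.7%, and the composite site in 1, that of Cd68, against 2.72%. In the downstream F13a1 window the PU.1 core (bases 265 to 270) lies inside the C/EBP match (bases 263 to 270). In Cd68 the composite match (bases 274 to 283) overlaps a PU.1 core (bases 280 to 285), and both lie on the strand opposite to the letters shown. The Ccr2 window held 1 C/EBP match and none of the other motifs. These matches describe the letters only.

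The first comparison asked how CreER-transduced cells differ from mock-transduced cells among ST-HSC-derived colonies. In these, 9 of the 10 monocyte genes were lower with CreER, against 57.4% of all genes, with a median log2 difference of -0.22 against -0.03 over the 10047 genes past the floor on the higher array. F13a1 was lower by 2.29-fold (log2 difference -1.20), and only 0.0299% of those genes had a lower difference. Ccr2 was lower by 1.86-fold (-0.89) and Cd14 by 1.56-fold (-0.65), values undercut by 0.0995% and 0.338% of genes. Vcan differed by -0.44, Mpeg1 by -0.31, Cd68 by -0.13, Adgre1 by -0.09 and Cx3cr1 by -0.05, while Lyz2 differed by -0.01 and Fcgr1 by 0.19. A gene was counted as different when the absolute log2 difference was at least 1 and the higher array was above the floor. By that rule 1 monocyte gene, F13a1, was counted, against 0.518% of all genes in either direction and 0.0796% lower with CreER. Of all genes 0.438% were counted as higher. With a threshold of 1.5-fold the count was 3, adding Ccr2 and Cd14.

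Among LT-HSC-derived colonies the genes farthest below 0 were Fcgr1, Cd68, Adgre1 and Mpeg1. With CreER, Fcgr1 was lower by 1.59-fold (-0.67), Cd68 by 1.47-fold (-0.56), Adgre1 by 1.40-fold (-0.48) and Mpeg1 by 1.28-fold (-0.35). Among the 10172 genes past the floor, 2.14% had a lower difference than Fcgr1, 3.31% than Cd68 and 4.89% than Adgre1. Ccr2 differed by -0.13, Vcan by -0.11 and Lyz2 by -0.11, whereas Cd14 (0.05), Cx3cr1 (0.09) and F13a1 (0.42) were above 0. F13a1 lay above 97.0% of genes. Of the 10 genes 7 were below 0, against 55.6% of all genes, with a median of -0.12 against -0.03 over all genes, and 0 were counted at 2-fold, against 0.875% of all genes (0.767% lower, 0.108% higher).

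**Figure D2:**
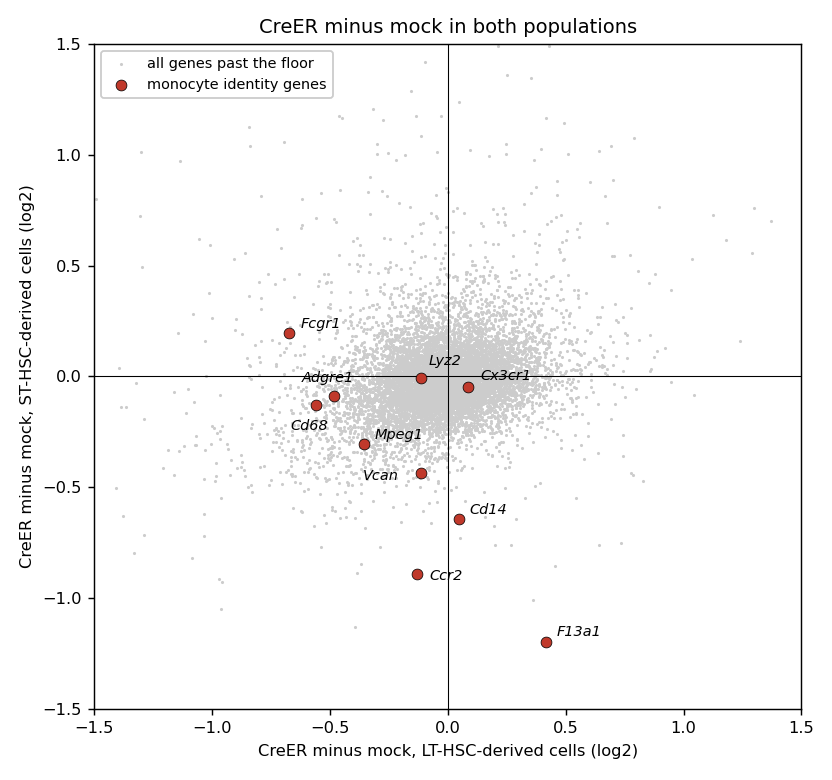
Log2 difference between the CreER and mock arrays in LT-HSC-derived cells (horizontal axis) and ST-HSC-derived cells (vertical axis), with red points for the 10 monocyte genes and grey points for the 9809 genes past the floor in both comparisons; 21 genes lie outside the axes. F13a1, Ccr2 and Cd14 lie low on the vertical axis and near or right of 0 on the horizontal axis, while Fcgr1, Cd68 and Adgre1 lie to the left.

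These CreER comparisons use separate arrays. Of the 10 genes, 6 were lower with CreER in both populations, against 35.6% of the 9809 genes past the floor in both, and 0 were higher in both. The other 4 had differences of opposite sign, against 41.7% of all genes. Among the 6, Lyz2 differed by only -0.01 in ST-HSC-derived cells, a value that changed sign under cyclic loess normalization. The effect of CreER in LT-HSC-derived cells minus that in ST-HSC-derived cells was 1.61 for F13a1, 0.76 for Ccr2, 0.69 for Cd14 and 0.32 for Vcan. It was -0.87 for Fcgr1, -0.43 for Cd68 and -0.39 for Adgre1, and between -0.11 and 0.13 for Lyz2, Mpeg1 and Cx3cr1. F13a1, Ccr2 and Cd14 thus lay farthest below 0 in ST-HSC-derived cells and Fcgr1, Cd68 and Adgre1 in LT-HSC-derived cells, with Mpeg1 at similar values in both. These differences of differences have no error, since each rests on 4 single arrays.

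The next comparison asked how LT-HSC-derived cells differ from ST-HSC-derived cells after mock transduction. F13a1 was lower by 2.55-fold (log2 difference -1.35) and Ccr2 by 2.38-fold (-1.25) in LT-HSC-derived cells, followed by Vcan (-0.84), Mpeg1 (-0.45) and Cd14 (-0.22). Among the 10208 genes past the floor, 0.147% had a lower difference than F13a1, 0.176% than Ccr2 and 0.803% than Vcan. The macrophage-type genes were close to 0, with Adgre1 at 0.05, Cd68 at -0.03 and Fcgr1 at 0.19, and so were Lyz2 (-0.04) and Cx3cr1 (0.07). F13a1 and Ccr2, 2 of the 10 genes, were counted at 2-fold, both lower, against 3.12% of all genes in either direction, 0.402% lower and 2.72% higher. The ST-HSC mock array, on which both genes were highest, enters this comparison and that of CreER with mock in ST-HSC-derived cells, so these differences are not separate observations.

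After CreER transduction, 0 of the 10 genes differed by 2-fold between LT-HSC-derived and ST-HSC-derived cells, against 1.94% of all genes (0.55% lower, 1.39% higher). Fcgr1 was lower in LT-HSC-derived cells by 0.67 log2 units, Vcan by 0.52, Mpeg1 by 0.50, Ccr2 by 0.49, Cd68 by 0.46 and Adgre1 by 0.34. F13a1 (0.26) and Cd14 (0.47) were higher. Relative to mock transduction, F13a1 and Cd14 turned from below to above 0, and Fcgr1 and Adgre1 from above to below 0. The median over the 10 genes was -0.40, against -0.13 after mock transduction and -0.02 over all genes. Vcan, Mpeg1 and Ccr2 were lower in LT-HSC-derived cells under both transductions.

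**Figure D3:**
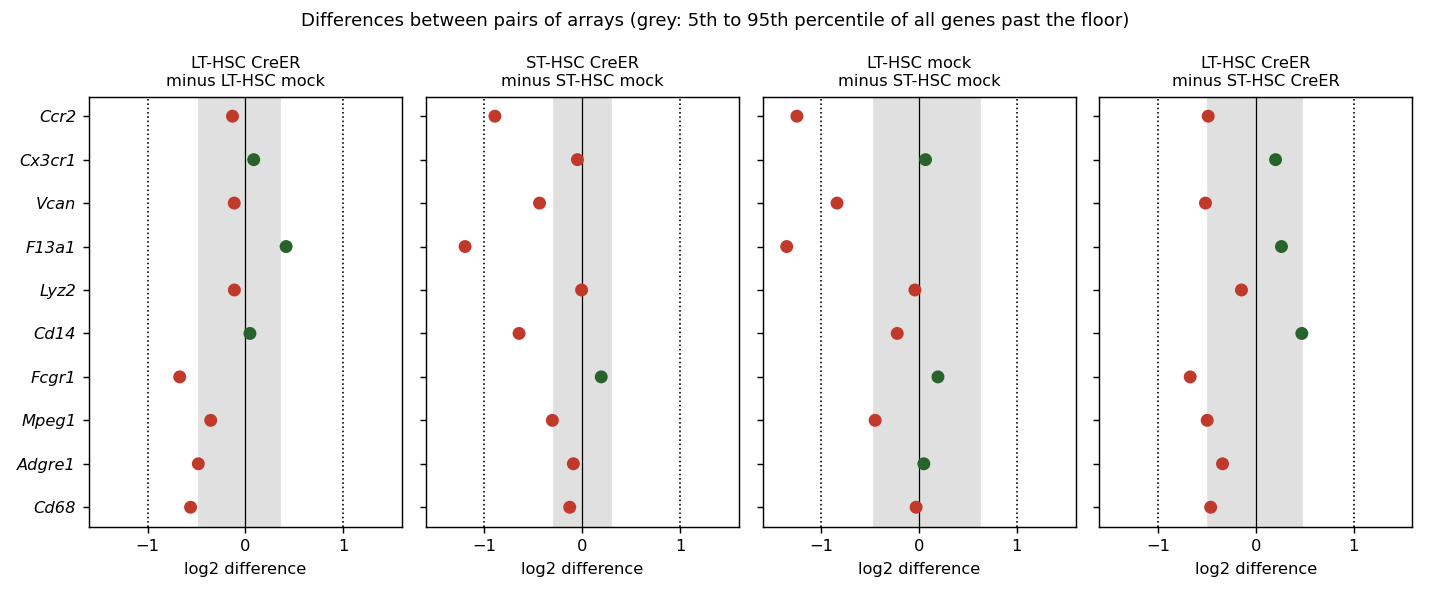
Log2 difference between 2 arrays (horizontal axis) for each monocyte gene (vertical axis) in the 4 comparisons, with green points above and red points below 0, dotted lines at a 2-fold difference and a grey band from the 5th to the 95th percentile of all genes past the floor. Ccr2, Vcan, F13a1, Cd14 and Mpeg1 lie below the band between the ST-HSC CreER and mock arrays.

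A limma fit to all 4 arrays and 10411 genes, in which population and transduction add up, gave each gene an average effect with a standard error from 1 residual degree of freedom and the prior. For CreER against mock, 9 of the 10 monocyte genes had an average effect below 0, against 56.4% of all genes, with a median of -0.29 against -0.02. Mpeg1 had -0.33 ± 0.09 (SE), Cd68 -0.34 ± 0.13 and Ccr2 -0.51 ± 0.19, with unadjusted p of 0.0148, 0.0453 and 0.0405 in limma. After Benjamini-Hochberg adjustment over all genes, 0 of the 10 passed 0.05 in limma, as did 0 of 10411 genes (0.0%), and the smallest adjusted p among the 10 was 0.389, for Mpeg1. Unadjusted p fell under 0.05 for these 3 of the 10 genes and for 10.1% of all genes. F13a1 had the widest error, with -0.39 ± 0.36, and its differences in the populations had opposite signs.

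For LT-HSC-derived against ST-HSC-derived cells in the same fit, Vcan was lower by an average of 0.68 log2 units (effect -0.68 ± 0.12 SE, limma adjusted p = 0.0390), in both transductions. Vcan was the 1 gene of the 10 to pass, against 6.27% of all genes in either direction, 2.49% lower and 3.78% higher. Its adjusted p ranged from 0.0228 to 0.0633 over the alternatives and no longer passed after quantile or cyclic loess normalization or with the floor at the 75th percentile. Mpeg1 (-0.47 ± 0.09, limma adjusted p = 0.0506) and Ccr2 (-0.87 ± 0.19, limma adjusted p = 0.0657) did not pass. The remaining 7 genes had effects between -0.55 ± 0.36 for F13a1 and 0.13 ± 0.10 for Cx3cr1. The labels do not name separate animals or cultures. The 1 residual degree of freedom of this fit reflects how the CreER effect differs between LT-HSC-derived and ST-HSC-derived cells, and the prior pools this over genes. These p-values therefore count such a difference as error. They do not measure the spread between replicate arrays, technical or biological.

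**Figure D4:**
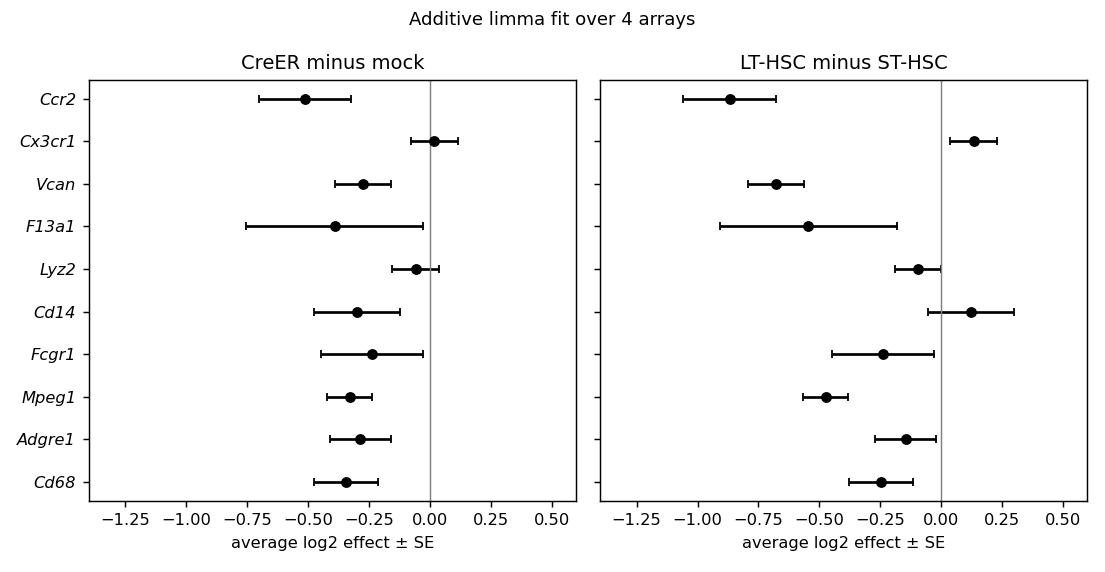
Average log2 effect of CreER against mock (left) and of LT-HSC against ST-HSC (right) for each monocyte gene in the additive limma fit over 4 arrays; points are estimates and bars are standard errors. Effects of CreER are below 0 for 9 of the 10 genes, and Vcan, Mpeg1 and Ccr2 have the effects of population farthest from 0 relative to their errors.

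Over all genes past the floor, 57.4% were below 0 with CreER in ST-HSC-derived cells and 55.6% in LT-HSC-derived cells. Among other genes of classical monocytes, of 15 listed and 11 measured, 9 of 11 past the floor were below 0 in ST-HSC-derived cells (median -0.13, 0 at 2-fold) and 7 of 10 in LT-HSC-derived cells (median -0.25, 1 at 2-fold). The gene at 2-fold was Fn1, the fibronectin gene, at -1.67, against -0.85 in ST-HSC-derived cells. Of all genes past the floor, 0.518% differed by 2-fold in ST-HSC-derived cells and 0.875% in LT-HSC-derived cells, in either direction. Clec4a1, a C-type lectin gene, differed by -0.67 in LT-HSC-derived cells and -0.60 in those from ST-HSCs, and Ms4a6c by -0.56 and -0.39. Both were also lower in LT-HSC-derived than in ST-HSC-derived cells in the additive fit, Clec4a1 by an effect of -1.23 ± 0.09 (SE) and Ms4a6c by -1.04 ± 0.10. These effects were the lowest of the list. Between the mock arrays, 7 of its 11 genes were lower in LT-HSC-derived cells and 4 higher (median -0.10), against 54.9% of all genes lower. Between the CreER arrays 9 of 11 were lower (median -0.26), against 53.8% of all genes. Clec4a1 stood under the floor on both LT-HSC arrays, so the size of its difference is uncertain.

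The genes of patrolling monocytes did not lean one way: 4 of 8 past the floor were below 0 in ST-HSC-derived and 3 of 8 in LT-HSC-derived cells, with medians of 0.00 and 0.12. Cd36, a scavenger receptor gene, differed by -1.52 in LT-HSC-derived cells, the 1 gene of the list at 2-fold, and by -0.30 in ST-HSC-derived cells. Treml4, a receptor of patrolling monocytes, was lower in LT-HSC-derived than ST-HSC-derived cells, with an additive effect of -0.90 ± 0.09 (SE). The list as a whole was split: between the mock arrays, 4 of 8 genes past the floor were lower in LT-HSC-derived cells and 4 higher (median -0.07). The split was the same between the CreER arrays (median 0.02). Over all genes 54.9% and 53.8% were lower in these comparisons.

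Of 12 measured transcription factors of monocytes, all were above the floor on all arrays. Of these, 10 were below 0 with CreER in ST-HSC-derived cells (median -0.21) and 8 in LT-HSC-derived cells (median -0.07), against 57.4% and 55.6% of all genes. Irf8, which directs monocyte commitment, was at 10.63 on ST-HSC mock, 10.28 on ST-HSC CreER, then 9.78 for LT-HSC mock and 9.95 for LT-HSC CreER. Its additive effect of population was -0.59 ± 0.15 (limma adjusted p = 0.0821), which did not pass. Egr1, an early growth response gene, was higher in LT-HSC-derived cells by 1.02 after mock and 1.37 after CreER transduction, with an additive effect of 1.19 ± 0.12 (limma adjusted p = 0.0112). Egr2 was higher by 1.15 after mock and 0.19 after CreER transduction. The factor Irf5 went the other way, at -0.61 after mock and -0.57 after CreER transduction, with an additive effect of -0.59 ± 0.09. Klf4, a factor needed for monocyte differentiation, differed with CreER by -0.96 in LT-HSC-derived cells and -0.22 in those from ST-HSCs, and Egr2 by -1.07 and -0.11. Zeb2, a repressor active in monocytes, differed by -0.51 and -0.47. Egr2 was the 1 factor counted at 2-fold in a CreER comparison, that of LT-HSC-derived cells, where 0.767% of all genes were 2-fold lower.

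The ligands of CCR2 had another order of arrays than their receptor. Ccl2 was at 10.07 on ST-HSC mock, 11.08 on ST-HSC CreER, then 11.71 for LT-HSC mock and 11.46 for LT-HSC CreER, so it was lowest on the array where Ccr2 was highest. Ccl7, the neighbouring CCR2 ligand, was at 8.47, 9.51, 10.54 and 9.70 on the same arrays. Both were 2-fold higher with CreER in ST-HSC-derived cells, by 1.01 for Ccl2 and 1.04 for Ccl7, against 0.438% of all genes. In LT-HSC-derived cells Ccl2 and Ccl7 differed by -0.25 and -0.84. Ccl8, Ccl12 and the CX3CR1 ligand gene Cx3cl1 were under the floor on all 4 arrays.

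Receptors and adaptors that work beside Cd14 and Fcgr1 were also measured. In LT-HSC-derived cells, 10 of 13 Toll-like receptor pathway genes past the floor were below 0 with CreER (median -0.41), against 55.6% of all genes (median -0.03). Ticam2, the adaptor of Toll-like receptor 4 signalling from endosomes, differed by -1.16, Tlr8, a receptor for RNA, by -0.97, Ly96, the lipopolysaccharide-binding partner of Toll-like receptor 4, by -0.80, Cd180 by -0.70 and Tlr4 by -0.69. In ST-HSC-derived cells 6 of 14 were below 0 (median 0.02), against 57.4% of all genes (median -0.03). There Ticam2 was at -0.44, Tlr8 at -0.24, Ly96 at 0.07, Cd180 at -0.48 and Tlr4 at 0.01, while Cd14 itself was at -0.65. The Fc receptor genes Fcgr2b, Fcgr3, Fcgr4 and Fcer1g were all below 0 in LT-HSC-derived cells, from -0.37 to -0.19, and all above 0 in ST-HSC-derived cells, from 0.01 to 0.59. The shares of all genes below 0 were the same 55.6% and 57.4%. Csf1, the ligand that sustains monocytes, differed by -0.97 in LT-HSC-derived cells and -0.28 in those from ST-HSCs. Its receptor gene Csf1r differed by -0.41 in LT-HSC-derived cells and -0.57 in those from ST-HSCs. Lyz1, a close paralogue of Lyz2 whose probes may share signal with it, differed by -0.42 and -0.10. Tgm2, a transglutaminase gene and paralogue of F13a1, differed by -1.03 and -0.33.

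**Figure D5:**
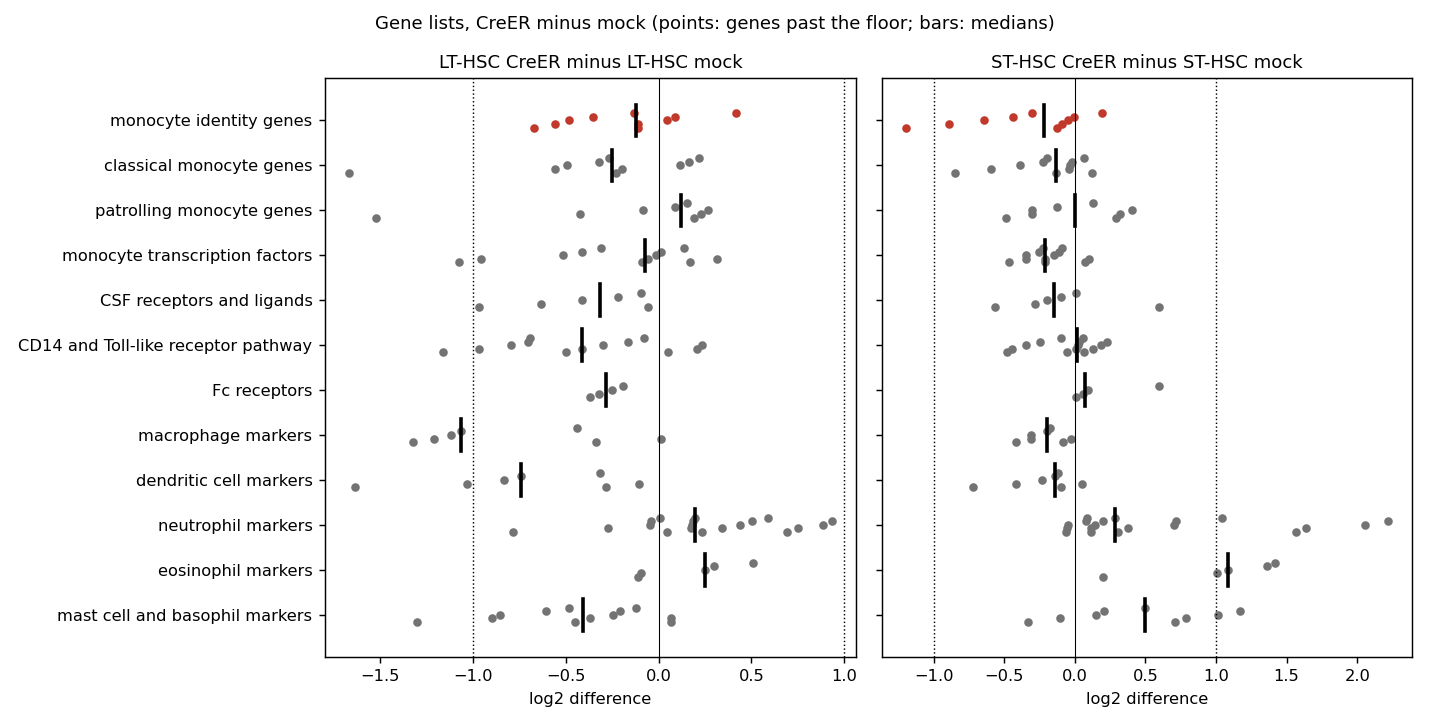
Log2 difference between CreER and mock arrays (horizontal axis) for the genes of 12 lists (vertical axis) in LT-HSC-derived (left) and ST-HSC-derived cells (right), with points for genes past the floor, red for the 10 monocyte genes, and bars for list medians. Macrophage and dendritic cell markers lie lowest in LT-HSC-derived cells, and eosinophil markers lie highest in ST-HSC-derived cells.

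Markers of other cell types also differed between the arrays. In ST-HSC-derived cells, 16 of 19 neutrophil markers were above 0 with CreER (median 0.29), whereas 57.4% of all genes were below 0. Of these markers, 5 were 2-fold higher, against 0.438% of all genes: Olfm4 (2.22), Mmp9 (2.05), Cxcr2 (1.64), Retnlg (1.57) and Stfa3 (1.04). In LT-HSC-derived cells 15 of 19 were also above 0 (median 0.20), with 0 at 2-fold. The mean log2 level of the list was 12.64 on ST-HSC mock and 13.24 on ST-HSC CreER, then 12.69 for LT-HSC mock and 12.95 for LT-HSC CreER. In ST-HSC-derived cells, eosinophil markers had a median of 1.08 with CreER, with 4 of 5 at 2-fold, against the same 0.438% of all genes: Prg2 (1.42), Epx (1.36), Prg3 (1.08) and Ear6 (1.004). Cpa3 (1.17) and Fcer1a (1.01), both of the mast cell and basophil list, and the platelet gene Ppbp (1.35) were also 2-fold higher there. In LT-HSC-derived cells, 6 of 7 macrophage markers past the floor were below 0 with CreER (median -1.07), against 55.6% of all genes. Of these, 4 were 2-fold lower, against 0.767% of all genes: Mrc1 (-1.32), Mertk (-1.21), Trem2 (-1.12) and Axl (-1.07). In ST-HSC-derived cells 7 of 7 were below 0, by less (median -0.20, 0 at 2-fold), against 57.4% of all genes. The dendritic cell genes Itgax (-1.63) and Irf4 (-1.03) were also 2-fold lower in LT-HSC-derived cells, as was Fcer1a (-1.30) of the mast cell and basophil list. On LT-HSC CreER, Mertk (8.01) stood under the floor and Irf4 (8.16) just above it, so the sizes of their differences are uncertain. Of the 17 macrophage markers, 10 were under the floor on all 4 arrays, among them the complement genes C1qa, C1qb and C1qc and the resident macrophage gene Timd4. Between the mock arrays, mast cell and basophil markers were higher in LT-HSC-derived cells, with a median of 2.29 and 10 of 12 at 2-fold. Of the 13 measured, 12 were above the floor on LT-HSC mock and 7 on ST-HSC mock. Some were thus counted only through the array where they are high, and the sizes of their differences are uncertain. The median over all 13 was 2.18. Megakaryocyte markers had a median of 1.34 between the mock arrays, with 5 of 6 at 2-fold. Over all genes the median of this comparison was -0.03, and 2.72% were 2-fold higher in LT-HSC-derived cells. The mean log2 level of the mast cell and basophil list was 8.93 on ST-HSC mock, 9.30 on ST-HSC CreER, then 10.83 for LT-HSC mock and 10.42 for LT-HSC CreER. Of 10 lymphoid markers, 9 were under the floor on all arrays, among them Cd3e and Cd79a. The part of these cell types in the differences of the monocyte genes was not tested.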

How the data were processed

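RNA of 4 groups was measured on 1 Affymetrix whole-transcript array each. The values the authors deposited are taken as log2 levels, from their range; the submitters' processing notes name Affymetrix Expression Console without a version, and no source here states the summarisation or normalization. Distributions are nearly equal between arrays, and values were used as deposited. Such summaries can compress differences near background and near saturation.

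Of 35556 probe sets, 21789 had 1 gene symbol in the platform annotation, 1621 several and 12146 none here. Genes with more than 1 probe set (999 genes) took the probe set of highest mean level; each of the 10 monocyte genes had 1. A gene was past the floor when the higher of the arrays compared exceeded its median of singly named probe sets. The size rule was a 2-fold difference past the floor, with no p-value. The additive model (lmFit and eBayes of limma 3.58.1, R 4.3.3, 1 residual and 4.27 prior degrees of freedom, Benjamini-Hochberg adjustment) covered 10411 genes. It was also run on simulated data with additive effects only, which cannot check its p-values where CreER effects differ between the populations.

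The genes named are the 10 monocyte genes, for each other list every gene at 2-fold with CreER and some of the up to 4 further genes with the largest differences, and for monocyte genes spanning at least 1 log2 unit the 3 nearest profiles. Which further genes are named, the markers named as under the floor, Egr1, Irf5, and the genes given by array or by population were chosen after their values were seen. The monocyte genes and lists were chosen with earlier results of these data known. Other lists (erythroid, fibroblast, dendritic cell, paralogues) were computed the same way: with CreER, 2 of 3 erythroid and 3 of 4 fibroblast markers were above 0 in LT-HSC-derived cells and 0 of 1 and 1 of 4 in ST-HSC-derived cells; 7 of 7 dendritic cell markers were below 0 in LT-HSC-derived and 6 of 7 in ST-HSC-derived cells, and 5 of 6 paralogues of the monocyte genes in both. Alternatives were 3 normalizations, 2 floors, 2 size thresholds, averaging of probe sets, a trend in the prior and an adjusted p of 0.1. Those for the signs of the CreER effects were chosen after seeing the data.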

Additional observations from a re-analysis of the deposited data

Results flagged for a closer look

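Of the 10 monocyte genes, 4 had CreER effects of opposite sign in the populations, on 1 array for each group, and the difference between the effects was not tested. Over all 9809 genes past the floor in both comparisons 41.7% had opposite signs, so the count is near the background. The CreER minus mock difference in LT-HSC-derived cells minus that in ST-HSC-derived cells was 1.61 log2 units for F13a1, whose effects were 0.42 in LT-HSC-derived cells and -1.20 in those from ST-HSCs. It was 0.69 for Cd14, with effects of 0.05 and -0.65, and -0.87 for Fcgr1, with effects of -0.67 and 0.19. It was 0.13 for Cx3cr1, whose levels stood at the signal floor. Of all genes past the floor in both comparisons, 99.97% had a lower value than F13a1 and 1.28% a lower value than Fcgr1.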

How the results depend on the processing

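Across 3 normalizations and averaging of probe sets, the 40 differences between arrays moved by at most 0.067 log2 units, and 1 of 160 values changed sign, that of Lyz2 in ST-HSC-derived cells, whose difference was -0.01. The counts at 2-fold did not change with those settings or the floor. With 1.5-fold, 1 gene was counted with CreER among LT-HSC-derived cells (Fcgr1), 3 among ST-HSC-derived cells (F13a1, Ccr2, Cd14), 3 between the mock arrays (F13a1, Ccr2, Vcan) and 1 between the CreER arrays (Fcgr1); with 3-fold, 0 were counted for CreER against mock in ST-HSC-derived cells and 0 between the mock arrays. In the limma fit for population, 1 gene passed as reported, 0 after quantile or cyclic loess normalization or with the floor at the 75th percentile, 2 (Vcan and Mpeg1) after centring on the median or with a trend in the prior, and 3 (adding Ccr2) without a floor or at an adjusted p of 0.1. For CreER, 0 passed under all 8 alternatives of that fit. The count of genes with CreER effects of opposite sign was 4, also under 3 of 4 alternatives chosen after seeing the data, and 5 under cyclic loess. Leaving out arrays was not run, since each group held 1 array. No paired analysis was possible because the labels give no replicate numbers, other than the additive fit itself, which compares CreER with mock within each population. Signal near background limits Cx3cr1, and signal near the top of the range limits Lyz2.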
